A study of Mus musculus with 9 samples.

Results

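The Fc receptor genes of mouse neutrophils are described here, namely Fcgr1, Fcgr2b, Fcgr3, Fcgr4, Fcer1g and Fcgrt. They were selected by gene symbol alone, without regard to their values, and are 6 of the 46517 genes in the expression table. Neutrophils of C57BL/6 mice were sorted from 3 compartments, the bone marrow (called marrow below), the blood and the pancreatic tumor, on day 27 after orthotopic transplantation (OT) of pancreatic ductal adenocarcinoma (PDAC) cells, and RNA from 3 libraries per compartment was sequenced. All groups carried the tumor, so no library from tumor-free mice enters the comparisons. The sort kept live CD45+ cells that lacked CD3, B220 and NK1.1 and carried Ly6G and Ly6C. The labels name the bone marrow cells Ly6G.hi and the blood and tumor cells Ly6G+. By the study's methods each library came from a pool of several mice, in 3 independent experiments, and the compartments were taken from the same mice. The p-values below thus measure the spread between pools, and the labels do not say which libraries share an experiment. The transplanted cells were a line derived from KPC mice. Bulk RNA cannot tell fewer cells of one type from less RNA per cell.

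Fc receptors let myeloid cells sense antibody. The activating receptors Fcgr1, Fcgr3 and Fcgr4 bind the constant part of IgG and pass the signal through the FcR gamma chain (Fcer1g), an adaptor whose ITAM motif is phosphorylated by Src family kinases and then bound by the kinase Syk. The inhibitory receptor Fcgr2b binds IgG too, but its ITIM motif recruits phosphatases such as Inpp5d that dampen the same signal. Through the activating receptors, neutrophils take up opsonized particles, release reactive oxygen and kill antibody-coated cells. Fcgrt encodes the heavy chain of the neonatal receptor FcRn, which pairs with B2m in endosomes and returns IgG to the cell surface.

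Fcgr2b, Fcgr3, Fcgr4 and Fcer1g all lie on chromosome 1, whereas Fcgr1 lies on chromosome 3 and Fcgrt on chromosome 7. On GRCm38 (GENCODE M21), Fcgr2b spans chr1:170958617-170976547 on the minus strand and Fcgr4 spans chr1:171018920-171029761 on the plus strand. Fcgr3 spans chr1:171051174-171064935 on the minus strand, and Fcer1g spans chr1:171229572-171234365 on the minus strand. Fcgr1 spans chr3:96282909-96293969 and Fcgrt spans chr7:45092990-45103851, both on the minus strand. All 6 are protein-coding genes. Transcripts of Fcgr2b and Fcgr3 share stretches of up to 129 bases, and 13.4% of the 31-base words of Fcgr3 also occur in Fcgr2b. Of its 75-base words, 5.42% do. Reads that fall in the shared stretches could be counted to either gene, so the levels of this pair carry that uncertainty. No other pair of the 6 genes shares more than 14 bases in a row. An antisense gene, Gm38204, overlaps Fcgr2b on the opposite strand and held at most 3 reads in any library.

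The promoters of these genes are shown because Fcgr3 and Fcgr4 were higher in blood than in marrow, a step at which Fcgr2b and Fcer1g were not called. The sequences are from RefSeq (GRCm38.p6) and run from 150 bases before to 30 bases after the transcription start, written 5′ to 3′ on the strand of the gene. Capitals mark matches to 4 short motifs on either strand. These were TTCNNNGAA, the STAT-type palindrome, GAGGAA, a core bound by ETS factors such as PU.1, and ACGTG and GCGTG, the cores of hypoxia response elements.
Fcgr1, chr3:96293940-96294119: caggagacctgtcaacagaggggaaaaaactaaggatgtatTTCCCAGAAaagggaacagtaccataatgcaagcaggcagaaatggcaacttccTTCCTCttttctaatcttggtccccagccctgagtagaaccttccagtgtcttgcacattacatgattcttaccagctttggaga
Fcgr3, chr1:171059374-171059553: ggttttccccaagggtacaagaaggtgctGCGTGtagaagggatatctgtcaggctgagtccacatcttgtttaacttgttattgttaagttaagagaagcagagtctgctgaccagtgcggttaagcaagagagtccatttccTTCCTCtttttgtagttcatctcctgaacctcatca
Fcgr4, chr1:171018776-171018955: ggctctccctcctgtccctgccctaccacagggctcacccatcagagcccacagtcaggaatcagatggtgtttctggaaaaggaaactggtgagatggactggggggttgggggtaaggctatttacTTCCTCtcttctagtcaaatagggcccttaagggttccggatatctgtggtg
Fcgr2b, chr1:170976042-170976221: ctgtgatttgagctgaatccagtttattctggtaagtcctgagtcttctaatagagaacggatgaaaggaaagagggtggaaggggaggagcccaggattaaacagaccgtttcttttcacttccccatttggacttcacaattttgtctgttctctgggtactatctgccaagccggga
Fcer1g, chr1:171234320-171234499: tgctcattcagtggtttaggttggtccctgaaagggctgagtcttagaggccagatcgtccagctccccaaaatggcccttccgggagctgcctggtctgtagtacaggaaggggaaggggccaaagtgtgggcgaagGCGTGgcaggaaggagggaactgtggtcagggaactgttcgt

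The 3 activating receptor genes each held GAGGAA, in its reverse complement TTCCTC, upstream of and close to the start. It lay at positions -55 to -50 in Fcgr1, -6 to -1 in Fcgr3 and -22 to -17 in Fcgr4, counted from the start site. RefSeq holds another start for Fcgr3, not shown above, from which the same match lay at -15 to -10. Both Fcgr3 starts lie inside the gene span given above. Over the 300 bases searched, from 250 before to 50 after the start, Fcgr2b, Fcer1g and Fcgrt held no GAGGAA, against 28.3% of the 32851 promoters of the same length that held one. GCGTG occurred once each in Fcgr3, Fcer1g and Fcgrt, and in 32.4% of all promoters. TTCNNNGAA occurred in Fcgr1, at -109 to -101, and in 8.30% of all promoters, whereas none of the 6 genes held ACGTG, found in 19.6%. The promoter of Fcgr2b held none of the 4 motifs. A match describes the letters in this window and not a site in use.

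Between 4580807 and 7949367 reads per library were recovered from the table. Libraries of a compartment correlated at 0.875 to 0.933 across the genes tested and libraries of different compartments at 0.415 to 0.793. The 13 neutrophil markers had reads in every compartment. They summed to 87260 to 89593 RPM (reads scaled to the total of the library) in marrow. The sums were 40164 to 40594 in blood and 17154 to 20756 in tumor. Ltf alone stood at 30624 to 32803 RPM in marrow and 398 to 621 in blood. Csf3r (1832 to 2270 in marrow, 9953 to 11515 in blood), Cxcr2 and Ptprc were higher in every blood library than in every marrow library. The other listed neutrophil markers were lower in every blood library. From blood to tumor the list was mixed as well. Ltf, Camp and Cd177 (705 to 892 RPM in blood, 996 to 1601 in tumor) were higher in every tumor library than in every blood library. The remaining neutrophil markers were lower in every tumor library. The 8 epithelial markers summed to 8.02 to 11.1 RPM in marrow and 2773 to 5908 in tumor. Among the tumor libraries, tumor 3 had the most epithelial RNA, and blood 2, with a sum of 141, had more than blood 1 (23.8) and blood 3 (21.4). Macrophage markers summed to 395 to 408, 1264 to 1433 and 506 to 639 RPM in marrow, blood and tumor, with Csf1r highest in every library. Csf1r (919 to 1047 RPM in blood, 224 to 245 in tumor), Apoe and Cx3cr1 were lower in every tumor library than in every blood library. C1qa (3 to 12 reads in blood, 30 to 33 in tumor), C1qb, Mrc1 and Mertk were higher in every tumor library. The other listed macrophage markers overlapped between blood and tumor. Monocyte markers summed to 1569 to 1809, 1850 to 2184 and 3984 to 5194 RPM. Of these, Cd14 stood at 422 to 587 RPM in blood and 3357 to 4576 in tumor, while Ccr2 (33.5 to 85.8 against 5.45 to 10.3), F13a1 (110 to 155 against 13.4 to 36.2), Csf1r and Ms4a4c were lower in every tumor library than in every blood library. Dendritic cell markers stayed at 21.8 to 134 in all libraries and NK cell markers at 0.922 to 63.5. Eosinophil marker sums were highest for the tumor libraries (241 to 295), lower for blood (105 to 137) and lowest for marrow (58.4 to 86.5). Siglecf reached 171 to 243 RPM in tumor, against 95.9 to 128 among blood libraries. Il5ra had 292, 300 and 459 reads in tumor and at most 10 in any other library. Ccr3 overlapped between blood and tumor. Epx had 0 reads in blood and tumor, and Prg2 had at most 2 there. Mast cell and basophil markers summed to 1460 to 2765, nearly all from Hdc, and Ms4a2 and Cpa3 were at 0 reads in tumor. The part of these other cells in the results below was not tested.

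On the deposited log2 scale, 4 of the 6 genes passed the filter on low values (log2 FPKM over 0 in at least 3 libraries). These were Fcgr2b, Fcgr3, Fcgr4 and Fcer1g. Compared with blood neutrophils, tumor neutrophils had more Fcgr2b and less Fcgr3, Fcgr4 and Fcer1g. All 4 were called by limma at an adjusted p under 0.05 (1 higher, 3 lower), beside 62.6% of the 7794 genes tested. Against bone marrow, tumor neutrophils had more Fcgr2b and less Fcgr4 and Fcer1g (3 of 4 called, beside 55.3% of all genes tested). Blood neutrophils had more Fcgr3 and Fcgr4 than bone marrow neutrophils (2 of 4 called, beside 44.2%). The 3 comparisons share their libraries. These counts follow the authors' scaled library sizes. With plain library totals the median of all genes tested moved up by 0.45 in both tumor comparisons, and the split of calls in tumor against blood changed from 2194 higher and 2686 lower to 2923 and 1898. Against bone marrow it changed from 1745 and 2566 to 2601 and 1634.

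**Figure D1:**
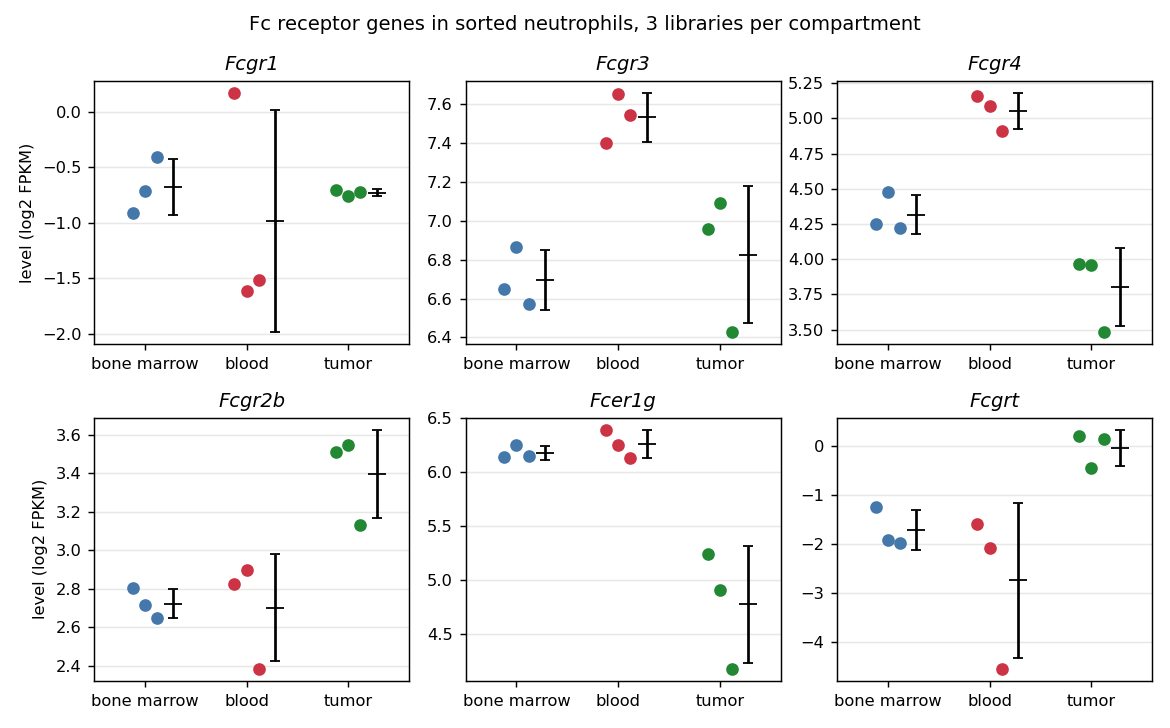
Level of each Fc receptor gene (log2 FPKM, vertical axis, a separate range in each panel) in the 3 libraries of bone marrow, blood and tumor neutrophils, with the mean and SD beside the points. Fcgr3 and Fcgr4 peaked in blood, Fcgr2b and Fcgrt were highest in tumor, and Fcer1g in tumor (4.18 to 5.24) lay below every other library.

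Among the activating receptors, Fcgr3, the low-affinity receptor that depends on the gamma chain, was by far the most abundant. Its log2 FPKM was 6.65, 6.87 and 6.57 in marrow, 7.40, 7.65 and 7.54 in blood, and 6.96, 7.09 and 6.43 in tumor. The blood libraries lay above all others, and the tumor libraries overlapped those of bone marrow. From bone marrow to blood it rose 1.79-fold (log2 0.84, SE 0.18, limma adjusted p = 0.00676). From blood to tumor it fell by 0.71 on the log2 scale (SE 0.18, adjusted p = 0.00906), to 0.612 times the blood level. With plain library totals this second difference was -0.26 and was not called (adjusted p = 0.127). With no filter on low values both calls were lost (adjusted p = 0.0503 for the rise into blood and 0.0521 for the fall into tumor). In tumor against bone marrow the difference was 0.13 (95% confidence interval -0.28 to 0.54, adjusted p = 0.567) on the deposited scale and 0.58 (adjusted p = 0.00681, called) with plain totals. Whether tumor neutrophils held more Fcgr3 than marrow neutrophils thus depended on the scaling.

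Fcgr4, a mouse receptor of intermediate affinity for IgG2 subclasses, followed Fcgr3 from marrow to blood and was lowest in tumor. Its log2 FPKM was 4.25, 4.48 and 4.22 in marrow, 5.16, 5.09 and 4.91 in blood, and 3.97, 3.96 and 3.48 in tumor. The 3 compartments did not overlap, with blood highest and tumor lowest. Fcgr4 was 1.67-fold higher in blood than in marrow (log2 0.74, SE 0.15, adjusted p = 0.00568). In tumor it dropped to 0.42 times the blood level (log2 -1.25, SE 0.15, adjusted p = 0.000208). Against bone marrow the tumor level was lower by log2 -0.51 (SE 0.15, adjusted p = 0.0206). That last call was lost with plain library totals (-0.06, adjusted p = 0.694), with quantile normalization (-0.29, adjusted p = 0.0782), with no filter on low values (adjusted p = 0.0977) and without bone marrow 2 (-0.43, adjusted p = 0.0728).

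Fcgr1, the high-affinity receptor that can bind IgG in monomeric form, was barely present. It had 39, 38 and 55 reads in marrow, 49, 20 and 18 in blood, and 42, 49 and 53 in tumor. Its log2 FPKM stayed between -1.61 and 0.17 and the compartments overlapped. Fcgr1 did not pass the filter on low values. When the filter was instead 5 reads in at least 1 library, which 17714 genes passed, its differences were 0.26 in tumor against blood (95% confidence interval -0.77 to 1.29), -0.05 in tumor against bone marrow (-1.08 to 0.98) and -0.31 in blood against bone marrow (-1.34 to 0.73). The limma adjusted p-values were 0.653, 0.94 and 0.679. The comparisons with blood depended on blood 1. Without that library, Fcgr1 was lower in blood than in tumor (0.83, adjusted p = 0.0248) and than in marrow (-0.88, adjusted p = 0.036). Blood was then left with the libraries of 20 and 18 reads. Tumor and bone marrow still differed by -0.05 (adjusted p = 0.87).

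Fcgr2b, the inhibitory receptor, rose in tumor neutrophils. Its log2 FPKM was 2.81, 2.72 and 2.65 in marrow, 2.83, 2.90 and 2.39 in blood, and 3.51, 3.55 and 3.13 in tumor. Every tumor library lay above every other library, and marrow and blood overlapped. The level in tumor was 1.62-fold that in blood (log2 0.69, SE 0.17, adjusted p = 0.00722) and 1.59-fold that in marrow (log2 0.67, SE 0.17, adjusted p = 0.00987). Blood and bone marrow differed by -0.02 (95% confidence interval -0.41 to 0.37, adjusted p = 0.942). The rise against bone marrow missed the threshold when no gene was filtered out (adjusted p = 0.0521). With plain library totals both tumor differences grew, to 1.14 and 1.12.

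**Figure D2:**
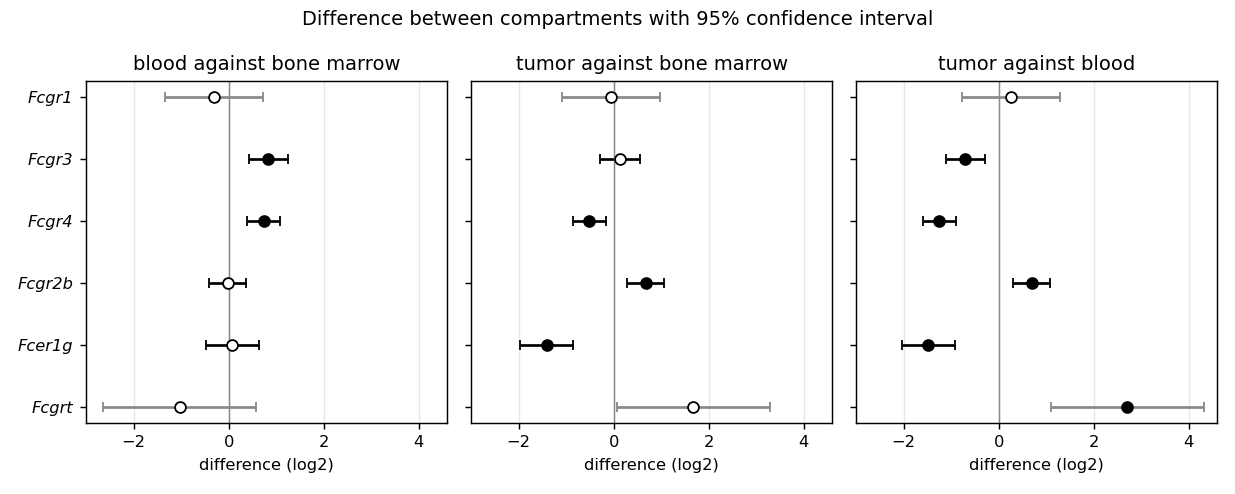
Log2 difference between compartments for each Fc receptor gene (horizontal axis, the same range in each panel) with its 95% confidence interval from limma. Filled points had an adjusted p under 0.05, and grey bars mark Fcgr1 and Fcgrt, which were fitted with the filter on reads. Fcgr2b lies to the right of 0 and Fcgr4 and Fcer1g to the left in both tumor panels.

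Fcer1g, the gamma chain that carries the ITAM for the activating receptors, had the most negative tumor differences of the 4 genes tested. Its log2 FPKM was 6.14, 6.25 and 6.15 in marrow, 6.40, 6.26 and 6.13 in blood, and 5.24, 4.91 and 4.18 in tumor. Blood and marrow overlapped, and the tumor libraries lay below both. In tumor it stood at 0.357 times the blood level (log2 -1.49, SE 0.24, adjusted p = 0.000966) and at 0.377 times the bone marrow level (log2 -1.41, SE 0.24, adjusted p = 0.00161). In blood against bone marrow the difference was 0.08 (95% confidence interval -0.48 to 0.64, adjusted p = 0.821). Both tumor differences were called in all 21 alternatives, at log2 values between -1.72 and -0.97 and between -1.64 and -0.95.

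Tumor 3, the library with the most epithelial RNA, had the lowest tumor level of Fcgr2b, Fcgr3, Fcgr4 and Fcer1g. Without it the differences from blood were 0.83 for Fcgr2b, -0.51 for Fcgr3, -1.09 for Fcgr4 and -1.19 for Fcer1g. All 4 were still called (highest adjusted p = 0.0103), beside 59.8% of all genes tested. Against bone marrow the differences were 0.80 for Fcgr2b, 0.33 for Fcgr3, -0.35 for Fcgr4 and -1.11 for Fcer1g. The same 3 genes were called as with all libraries, beside 52.4% of all genes tested.

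Fcgrt, the FcRn heavy chain, was low in all compartments and highest in tumor. It had 30, 16 and 18 reads in marrow, 14, 14 and 2 in blood, and 77, 59 and 94 in tumor. The log2 FPKM values were -1.26, -1.92 and -1.98 in marrow, -1.60, -2.09 and -4.55 in blood, and 0.20, -0.47 and 0.13 in tumor. The tumor libraries did not overlap with the others. Fcgrt did not pass the filter on log2 FPKM. In the fit with the filter on reads, where 52.6% of genes were called in tumor against blood, it was 6.50-fold higher in tumor (log2 2.70, SE 0.70, adjusted p = 0.0116). Without blood 3, which held 2 reads, this was 1.80 (SE 0.36, adjusted p = 0.00571). With no filter at all the call was lost (adjusted p = 0.0681). Against bone marrow the difference was 1.67 (SE 0.70, adjusted p = 0.0847, beside 43.7% of genes called). It was called without blood 3 (adjusted p = 0.00497), with plain totals (2.13, adjusted p = 0.0383) and with limma-voom on the recovered reads (1.64, adjusted p = 0.00913). In blood against bone marrow, where 28.9% of genes were called, Fcgrt differed by -1.03 (95% confidence interval -2.64 to 0.58, adjusted p = 0.332). Epithelial cells are known to express FcRn, and the epithelial markers summed to 3668, 2773 and 5908 RPM in tumor 1, 2 and 3. On the same scale Fcgrt stood at 14.1, 8.47 and 14.5 RPM, so tumor 2 was lowest in both. In blood 2, the blood library with the most epithelial RNA, Fcgrt stood at 2.05. The part of epithelial RNA in the Fcgrt level was not tested.

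Levels of different genes were compared per length, as FPKM recomputed on merged exons with the authors' scaled library sizes. In bone marrow Fcgr3 stood at 825 ± 88.8 (SD, n = 3), Fcer1g at 398 ± 17.7, Fcgr4 at 173 ± 17.0 and Fcgr2b at 20.5 ± 1.10. In blood Fcgr3 reached 1472 ± 128, Fcer1g 422 ± 38.2, Fcgr4 287 ± 24.8 and Fcgr2b 20.4 ± 3.71. In tumor these levels were 916 ± 209 for Fcgr3, 157 ± 54.5 for Fcer1g, 122 ± 22.1 for Fcgr4 and 32.9 ± 4.96 for Fcgr2b. The order Fcgr3, Fcer1g, Fcgr4, Fcgr2b thus held in every compartment, but the ranges of Fcer1g (99.1 to 207) and Fcgr4 (96.3 to 135) overlapped in tumor. Fcgr3 was above 99.4% of the genes tested in marrow, 99.7% in blood and 99.5% in tumor. Fcgr2b was above 73.4% in marrow, 73.3% in blood and 85.2% in tumor. Fcgr1 (2.68, 2.55 and 2.56 in marrow, blood and tumor) and Fcgrt (1.59, 1.03 and 5.08) were the lowest, and only in tumor did Fcgrt lie above Fcgr1 in all 3 libraries.

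Ratios between the genes within a library do not depend on the scaling. Their size does depend on the merged exon lengths used. These were 5790 bases for Fcgr2b, 1736 for Fcgr3, 1256 for Fcgr4 and 2589 for Fcgr1, the same in every compartment. The sum of the activating receptors Fcgr1, Fcgr3 and Fcgr4 was 44.5, 55.0 and 47.2 times the level of Fcgr2b in the bone marrow libraries. It was 75.4, 81.8 and 108 times in blood and 31.8, 33.7 and 28.7 times in tumor. The balance of activating to inhibitory transcripts was thus highest in blood and lowest in tumor, with no overlap between compartments. Of the 4 IgG receptor transcripts together, Fcgr2b made up 2.02% ± 0.21 in marrow, 1.15% ± 0.20 in blood and 3.10% ± 0.24 among tumor libraries (SD, n = 3). Fcgr4 made up 16.9% ± 0.24, 16.2% ± 1.94 and 11.4% ± 0.65, and Fcgr3 made up 80.8% ± 0.37, 82.5% ± 2.22 and 85.2% ± 0.93.

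The log2 ratio of Fcgr4 to Fcgr2b was 3.83 ± 0.17 in blood and 1.88 ± 0.06 in tumor, a difference of -1.95. The log2 ratio of Fcgr3 to Fcgr2b differed by -1.40 between the same compartments. The log2 ratio of Fcgr4 to Fcgr3 was -2.26 ± 0.03 in marrow, -2.36 ± 0.21 in blood and -2.90 ± 0.10 in tumor. Fcer1g stood at 0.400 ± 0.025 times the summed activating receptors in marrow, 0.241 ± 0.033 times in blood and 0.149 ± 0.031 times in tumor, and the 3 compartments did not overlap. For each of these ratios tumor did not overlap with blood or bone marrow, which gave p = 0.1 in an exact two-sided permutation test, the smallest value that 3 against 3 libraries allow.

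**Figure D3:**
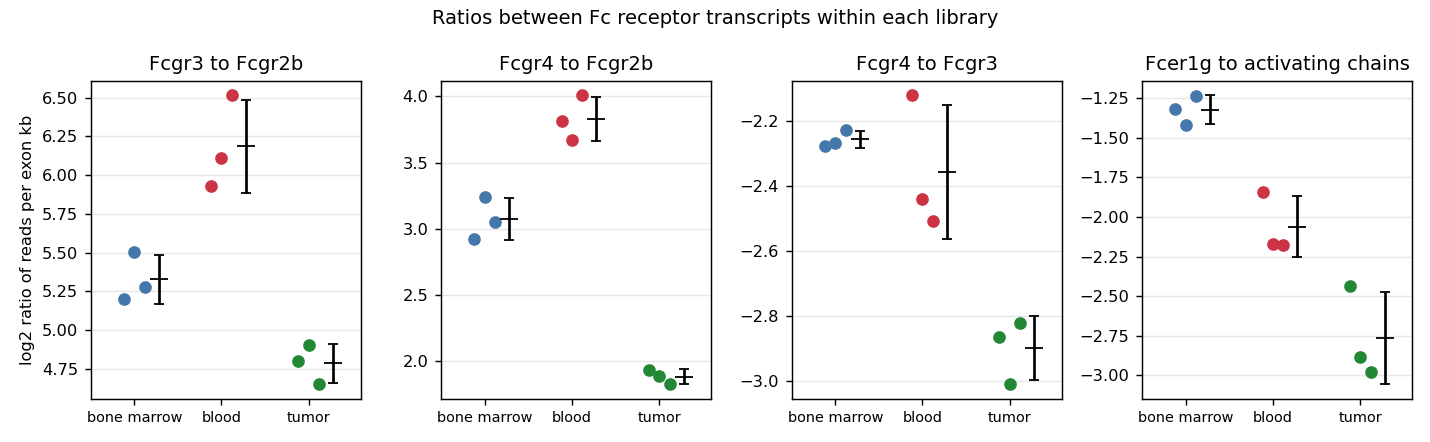
Log2 ratio of reads per exon kilobase between Fc receptor transcripts within each library (vertical axis, a separate range in each panel), with the mean and SD of 3 libraries per compartment. The activating chains are Fcgr1, Fcgr3 and Fcgr4 summed. The ratio of Fcgr4 to Fcgr2b lay at 3.67 to 4.01 in blood and at 1.83 to 1.94 in tumor, and the tumor libraries lay lowest in all 4 panels.

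As for their ligands, immunoglobulin chain RNA was present in these sorted cells, and 10 of 11 listed genes were tested. In tumor against blood 7 were higher and 2 lower (median log2 4.98, or 4.56 with Ighg3 at its bound, beside -0.17 over all genes). In tumor against bone marrow 2 were higher and 2 lower (median 0.05, all genes -0.21). In blood against bone marrow none was higher and 5 were lower (median -3.62, all genes -0.04). For this list and the lists below, the shares called among all genes tested were 62.6%, 55.3% and 44.2% in these 3 comparisons. Igkc, the kappa light chain, had log2 FPKM 6.90 ± 0.17 in marrow, 6.10 ± 0.54 in blood and 7.77 ± 0.48 in tumor, and was higher in tumor than in both (1.67 against blood and 0.87 against bone marrow, adjusted p = 0.00219 and 0.0467). Ighm, the IgM heavy chain, was lower in tumor (-1.68 against blood, adjusted p = 0.00019), and Iglc1 was not called in any comparison. The IgG heavy chains, named with their values known because IgG is the ligand of the receptors, held at most 22 reads in any blood library. Ighg2c had 78, 23 and 287 reads in marrow, 14, 15 and 0 in blood and 907, 1218 and 1147 in tumor. Ighg1 had 175, 137 and 49, then 17, 22 and 2, then 888, 1230 and 726 reads. Ighg3 had no read in blood and 160 in the 3 tumor libraries, at least 34.9-fold higher taking 3 reads over the blood libraries as the floor. Markers of B cells and plasma cells summed to 264 to 408, 282 to 449 and 451 to 541 RPM in marrow, blood and tumor. The sort had left out B220+ cells. The part of B-lineage RNA in these values was not tested.

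Among other Fc and Fc-like receptors, 2 of 14 passed the filter, with none higher and 1 lower in tumor than in blood (median 1.81, the midpoint of 2 differences of opposite sign), 1 higher and 1 lower than in marrow (median 4.48, or 3.52 with Pigr at its bound), and 1 higher and none lower in blood than in marrow (median 2.66, or 4.38 with Pigr at its bound). With limma-voom, which tested 12, 2 were higher and 4 lower in tumor than in blood (median -1.43, all genes 0.39). That fit called 55.1% of its 17714 genes in this comparison. Fcrl1, a B cell receptor of the Fc receptor-like family, was lower in tumor than in blood (-2.63, adjusted p = 8.15e-05). Pigr, which carries polymeric IgA and IgM across epithelium, had 421, 104 and 238 reads in tumor, 266 in blood 2, the blood library with epithelial RNA, and 0 in the other blood and all bone marrow libraries. Fcer1a, Fcmr, Fcer2a and the others stayed at no more than 94 reads in any library, except Fcgbp with 211 in tumor 1 and 165 in blood 2. The high-affinity IgE receptor chains Fcer1a and Ms4a2, which also use Fcer1g, had at most 3 reads in any blood or tumor library.

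Other users of the gamma chain and its sister adaptors did not all follow Fcer1g. Of the 7 tested (11 of 13 listed in the table), none was higher and 4 were lower in tumor than in blood (median -1.19), and 2 were higher and 3 lower than in marrow (median 0.24). In blood against bone marrow 2 were higher and none lower (median 0.55). All genes tested had medians of -0.17, -0.21 and -0.04 in these comparisons, and 62.6%, 55.3% and 44.2% were called. Tyrobp (DAP12), the closest sister adaptor, fell by 1.93 against blood (adjusted p = 0.000164) and by 1.38 against marrow neutrophils (adjusted p = 0.00116). Clec4e (Mincle), a C-type lectin that signals through the gamma chain, had log2 FPKM 6.62 ± 0.17 in marrow, 7.31 ± 0.04 in blood and 7.77 ± 0.58 in tumor, and exceeded its marrow level in tumor (1.16, adjusted p = 0.00611). Clec4d was lower in tumor than in blood (-1.19, adjusted p = 0.00245). Clec4n (Dectin-2), named with its values known, was higher than in marrow by 3.07 in blood and 3.46 in tumor (adjusted p = 0.000222 and 6.12e-05). With plain totals 2 of the 7 genes were higher and 4 lower in tumor than in blood, and 4 higher and 3 lower than in marrow.

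Downstream, most of the genes of activating ITAM signalling that were tested were lower in tumor neutrophils. Of 27 listed genes 20 were tested. In tumor against blood none was higher and 17 were lower (median -1.73), and in tumor against bone marrow none was higher and 15 were lower (median -1.39). In blood against bone marrow 8 were higher and none lower (median 0.41). Among all 7794 genes tested, 2194 were higher and 2686 lower in tumor than in blood (median -0.17). Against bone marrow 1745 were higher and 2566 lower in tumor (median -0.21), and 1605 and 1841 in blood (median -0.04). Rac2, the GTPase of the NADPH oxidase, had log2 FPKM 8.32 ± 0.12 in marrow, 8.14 ± 0.10 in blood and 5.93 ± 0.21 in tumor (-2.21 against blood, adjusted p = 6.09e-06). The Src family kinase Fgr rose in blood (0.88, adjusted p = 0.000357) and fell in tumor (-2.36 against blood, adjusted p = 2.65e-06). Prkcd, a protein kinase C, was lower in tumor by 0.99 than in blood (adjusted p = 0.00488). Syk itself was higher in blood than in marrow (0.75, adjusted p = 0.0182) and lower in tumor than in blood (-1.18, adjusted p = 0.00128), whereas tumor and bone marrow differed by -0.43 (adjusted p = 0.106). With plain totals the counts were 1 higher and 17 lower against blood, and 1 higher and 13 lower against bone marrow. With limma-voom on the recovered reads, which tested all 27, 2 were higher and 19 lower against blood, and 4 were higher and 18 lower against bone marrow. Over all 17714 genes of that fit, 5871 were higher and 3888 lower against blood (55.1% called). Against bone marrow 5192 were higher and 3722 lower (50.3%). The kinase Src, named with its values known, did not pass the filter and had 75 to 260 reads in tumor and 1 to 24 elsewhere.

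Most inhibitory genes tested were lower as well. Of 12 genes tested among 16 listed, 9 were lower in tumor than in blood (median -1.08) and 11 were lower than in marrow (median -1.09), with none higher in either. In blood against bone marrow 6 were higher and 1 lower (median 0.35). The medians of all genes tested were again -0.17, -0.21 and -0.04, with 62.6%, 55.3% and 44.2% called. Pirb, an ITIM receptor of neutrophils, had log2 FPKM 7.81 ± 0.10 in marrow, 8.20 ± 0.01 in blood and 5.62 ± 0.20 in tumor (-2.57 against blood, adjusted p = 2.65e-06). The adaptor Dok3 fell by 2.06 and the phosphatase Ptpn6 (SHP-1) fell by 2.17 against blood (adjusted p = 2.65e-06 and 1.47e-05). Inpp5d, the lipid phosphatase through which Fcgr2b acts, was lower in tumor by 0.87 than in blood (adjusted p = 0.00083) and by 0.39 than in marrow (adjusted p = 0.0424). With plain totals 7 were lower against blood and none higher, and 7 were lower and 1 higher against bone marrow. With limma-voom, which tested 15, 1 was higher and 11 lower against blood, and 1 was higher and 10 lower against bone marrow. Of the 17714 genes in that fit, 55.1% and 50.3% were called in these comparisons.

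**Figure D4:**
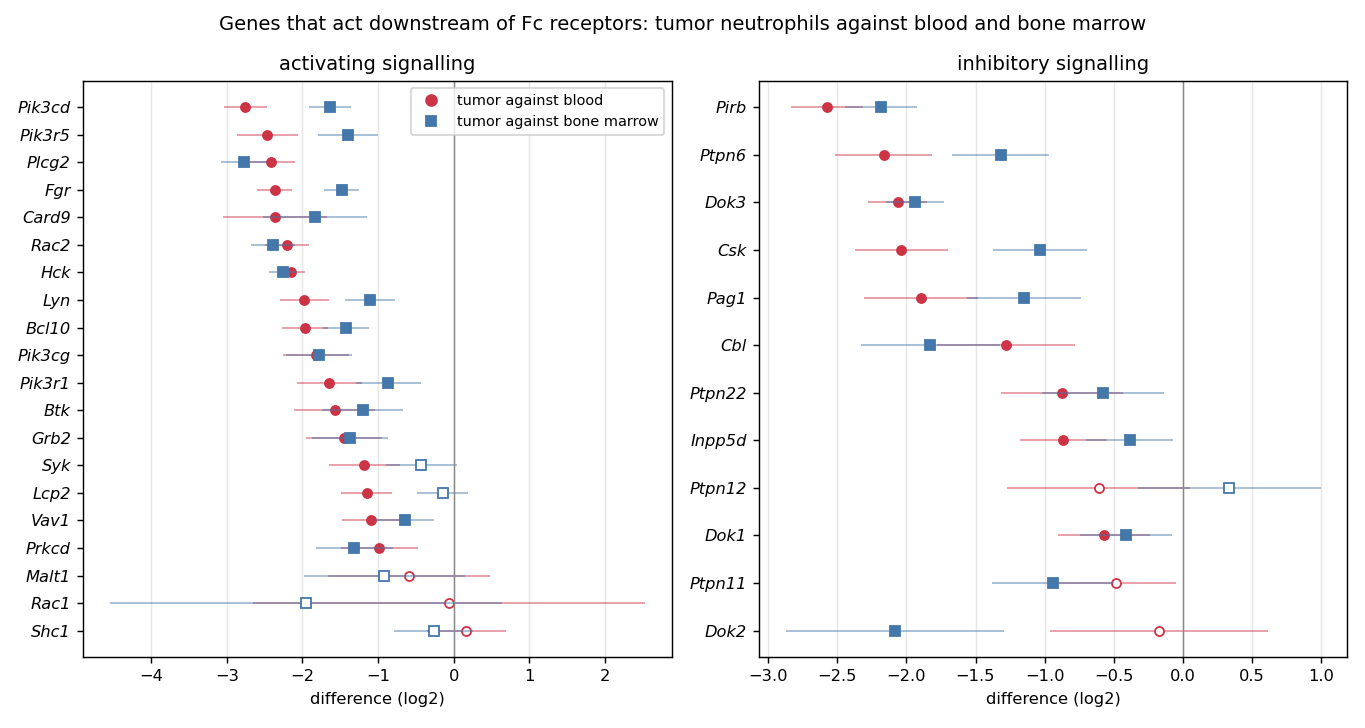
Log2 difference of tumor neutrophils against blood (circles) and bone marrow (squares), with 95% confidence intervals from limma, for the 20 activating and 12 inhibitory signalling genes tested (horizontal axis, a separate range in each panel). Filled symbols had an adjusted p under 0.05, and none of the filled symbols lies to the right of 0.

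For FcRn, most of the partner and recycling genes tested were lower in tumor. Of 8 tested among 11 listed, none was higher and 6 were lower in tumor than in blood (median -0.68), and none was higher and 5 were lower than in marrow (median -0.59). In blood against bone marrow 2 were higher and 2 lower (median 0.07). Beside these counts, 62.6%, 55.3% and 44.2% of all genes tested were called, with medians of -0.17, -0.21 and -0.04. B2m, the light chain of FcRn and of MHC class I, had log2 FPKM 7.34 ± 0.19 in marrow, 8.08 ± 0.38 in blood and 7.28 ± 0.70 in tumor and was not called in any comparison (-0.80 in tumor against blood, adjusted p = 0.077). Ehd1 and Rab11b, which act in endosome recycling, were lower in tumor than in blood by 0.51 and 1.06 (adjusted p = 0.0176 and 2.61e-05). With plain totals 2 of the 8 were lower and none higher in each tumor comparison. With limma-voom on all 11, 1 was higher and 8 lower against blood, and 2 were higher and 6 lower against bone marrow. Beside these, 55.1% and 50.3% of the 17714 genes in that fit were called. Rab4a, an endosome GTPase named with its values known, did not pass the filter and had 28, 26 and 72 reads in tumor and at most 2 in any other library.

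Across the 9 libraries, Pearson's r of log2 FPKM was 0.83 between Fcgr3 and Fcgr4 and 0.84 between Fcgr4 and Fcer1g. It was -0.59 between Fcgr2b and Fcgr4 and -0.70 between Fcgr2b and Fcer1g, whereas Fcgr2b and Fcgrt had r = 0.85. The points share their compartments, so these values describe mainly the steps between them. Over the same 9 libraries, the genes tested with the highest r were Iqsec1, Birc3 and Zfp719 for Fcgr3 (0.99, 0.98 and 0.98), and Ap3d1, Zfp646 and Ccdc186 for Fcgr4 (0.99 each). For Fcer1g they were Dynlt1b, Arpc3 and Dennd4b (0.99 each), and for Fcgr2b they were A630081D01Rik, D930030I03Rik and Amdhd2 (0.98, 0.97 and 0.97). For Fcgrt they were Lgals1, Polr2h and Rpl12 (0.97, 0.96 and 0.96), and for Fcgr1 they were Cebpz, Gm13033 and 2210016L21Rik (0.85, 0.82 and 0.82).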

How the data were processed

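RNA-seq was compared in 9 libraries of sorted neutrophils, 3 each from bone marrow, blood and tumor, grouped by their labels. The authors deposited log2 FPKM values per gene. The submitters' processing notes name STAR 2.5.2b, featureCounts 1.5.0 and edgeR 3.8.6, and the handling of reads that map to several genes is not given in the sources used here. The values gave back whole reads for 46517 of 46517 genes (tolerance 0.02), on the authors' scaled library sizes (scaling factors 0.796 to 1.22). The FPKM length was the genomic span for 85.1% of the genes matched to GENCODE M21, so levels of different genes were recomputed per merged exon length.

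The 7794 genes that exceeded a log2 FPKM of 0 in 3 or more libraries were fitted in limma 3.58.1 (R 4.3.3, lmFit and eBayes with trend) with 1 coefficient per compartment and Benjamini-Hochberg adjustment over all genes tested, at a threshold of 0.05. Fcgr1 and Fcgrt did not pass this filter and were taken from a fit with the filter set at 5 reads in at least 1 library (17714 genes). Fold changes are on the log2 FPKM scale. The scripts were tested on simulated data. The alternatives were limma-voom on the recovered reads, plain library totals, quantile normalization, other filters and pseudocounts, a replicate block and leaving out each library. List counts under plain totals and limma-voom, and the fits of Fcgr1 and Fcgrt without single libraries or with plain totals, were added after seeing the data.

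The genes and lists were chosen with earlier results of these data known. All 6 Fc receptor genes are described. From each list the 3 genes with the highest mean log2 FPKM are named, with B2m, Tyrobp, Syk, Inpp5d and Ptpn6, and for each Fc receptor gene the 3 tested genes with the highest correlation. With 3 libraries per group, the number of libraries limits the precision, and read numbers of Fcgr1 and Fcgrt (2 to 94) limit it further. Protein sequences were not analysed here.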

Additional observations from a re-analysis of the deposited data

How the results depend on the processing

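The libraries held 4580807 to 7949367 reads, of which Fcgr1 and Fcgrt had 2 to 94 each. Of the 4, 3 and 2 Fc receptor genes called for tumor-blood, tumor-marrow and blood-marrow differences, 4, 2 to 3 and 2 were called when single libraries were left out. With no filter, 3 of 6 were called in tumor against blood, 1 in tumor against marrow and 1 in blood against marrow. More genes then entered the adjustment, and 16.2%, 12.8% and 7.56% of the 46517 were called. No called Fc receptor gene changed sign under any alternative run. Over all genes tested, 4880, 4311 and 3446 were called in the 3 comparisons, and 4525 to 4773, 3743 to 4295 and 2742 to 3581 when single libraries were left out. In tumor against blood 7532 were called with no filter, 2562 with the stricter filter, 9314 with the filter on reads and 9759 with limma-voom. In tumor against marrow 2378 were called with the stricter filter, 7734 with the filter on reads and 8914 with limma-voom, and in blood against marrow 1924 with the stricter filter and 5361 with limma-voom. These filters tested different numbers of genes. With a replicate block 4851, 4241 and 3383 genes were called, and 4, 3 and 2 Fc receptor genes. The labels do not say that a replicate number marks a shared experiment. Across all genes tested the pairing was not seen. Deviations of libraries with the same number correlated at -0.0714 to 0.108, and 4 of 9 libraries correlated best with their own number. With the block the SE in tumor against blood fell from 0.17 to 0.11 for Fcgr2b and from 0.18 to 0.14 for Fcgr3. It fell from 0.15 to 0.11 for Fcgr4 and from 0.24 to 0.20 for Fcer1g. Library 3 was lowest in every compartment for Fcgr2b and Fcgr4, but not for Fcgr3 and Fcer1g.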
